A study of Mus musculus with 9 samples.

Results

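Horizontal cells, the lateral interneurons of the outer retina, were chosen by their measured marker RNA in single-cell RNA-sequencing data of 9 mouse retinas in which miR-204 and miR-211 had or had not been deleted from the retinal pigment epithelium (RPE). A cell was counted as a horizontal cell when it held at least 1 unique molecular identifier (UMI, a tag that counts each captured RNA molecule once) of Lhx1 and of at least 2 of Onecut1, Onecut2 and Calb1. The sum of these 4 markers had to reach 3 per 10000 UMIs, and Rbpms plus Slc17a6, markers of ganglion cells, had to stay under 2 per 10000. This left 229 of 31089 cells, or 0.737% of all cells, which held 2.37% of all UMIs. All mice, controls included, carried RPE65-ERT2-Cre.miR-211fl.miR-204fl and were homozygous for the M450 allele of RPE65. The 4 control mice (S01 to S04) received corn oil and the 5 dKO mice (S05 to S09) tamoxifen in the same vehicle, at 75 mg/kg, for 5 days from postnatal day 28. Corn oil and tamoxifen are the treatments on the sample labels, whereas the paper describes Cre-negative mice given tamoxifen as its controls. Retinas were taken 6 months after induction, and both retinas of a mouse made up 1 sample. Cre recombinase is driven in the RPE, so that the deletion is made in RPE cells and not in horizontal cells. With the treatments on the labels, tamoxifen and deletion cannot be told apart as the source of a difference between the groups.

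Horizontal cells send their processes into the outer plexiform layer and receive glutamate from rods and cones on their dendrites and axon terminals. They are coupled to each other by gap junctions and send inhibitory feedback to the photoreceptors, for which changes of synaptic pH, hemichannels and GABA have been put forward as routes. Their cell bodies form a regular mosaic, and the mouse has a single axon-bearing type.

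The microRNAs deleted in the neighbouring epithelium are shown because they define the groups; neither is a row of the gene table, so their level was not analysed here. Both mature forms, taken from RefSeq (GRCm38.p6), have 22 bases and differ at 1 of them. The seed, bases 2 to 8, is in capitals and is identical.
mmu-miR-204-5p: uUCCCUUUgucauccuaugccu
mmu-miR-211-5p: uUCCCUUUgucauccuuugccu

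The number of horizontal cells ranged from 6 to 53 per mouse. Among control mice, S01 held 36 (0.872% of its cells), S02 held 53 (1.37%), S03 held 27 (0.834%) and S04 held 6 (0.221%). Among dKO mice, S05 held 6 (0.370%), S06 held 26 (0.628%), S07 held 12 (0.255%), S08 held 44 (1.38%) and S09 held 19 (0.545%). The groups overlapped over most of their range, and the highest control mouse and the highest dKO mouse had nearly the same share. Control mice had a mean share of 0.825% ± 0.471 (SD, n = 4) and dKO mice one of 0.635% ± 0.439 (SD, n = 5), a difference smaller than the spread between mice (exact two-sided permutation test over mice, p = 0.540, smallest possible p = 0.0159). The mice with the lowest shares were S04, S05 and S07. They also carried Y-linked RNA and the most rod RNA in their other cells (2.57%, 1.36% and 1.86% of UMIs on 10 rod markers, against 0.353% to 0.475% in the other 6 mice). The part of either in the share was not tested. S06 and S07 bear the same animal number in the labels, yet horizontal cells of S06 held Xist and those of S07 Y-linked RNA. The RNA of a mouse's cells summed to 15079143 to 66528160 UMIs. Counted per 100 cells of a GABAergic amacrine-type gate, the means were 12.9 horizontal cells in control and 7.97 in dKO mice (exact permutation p = 0.0794). In this assay a share of recovered cells depends on dissociation and on the other cells captured, and is no count of cells in the retina.

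Horizontal cells were deeply covered. They held a median of 39307 UMIs (range 2030 to 178568) and 6100 genes, against 7621.5 UMIs and 2706 genes in the other cells. By mouse, the median horizontal cell held 37333.5 UMIs in S01, 37711 in S02, 44166 in S03 and 36028 in S04, and 43884.5 in S05, 44857.5 in S06, 46866 in S07, 36910.5 in S08 and 39795 in S09. This was 3.78 to 9.08 times the median of the other cells of the same mouse. Over the 7 mice with at least 10 horizontal cells, 3 control (S01, S02 and S03) and 4 dKO (S06 to S09), the log2 of the median was 15.27 ± 0.14 (SD, n = 3) for control and 15.36 ± 0.16 (SD, n = 4) for dKO mice. An exact permutation test gave p = 0.457, and 3 against 4 mice cannot go below 0.0571.

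**Figure D1:**
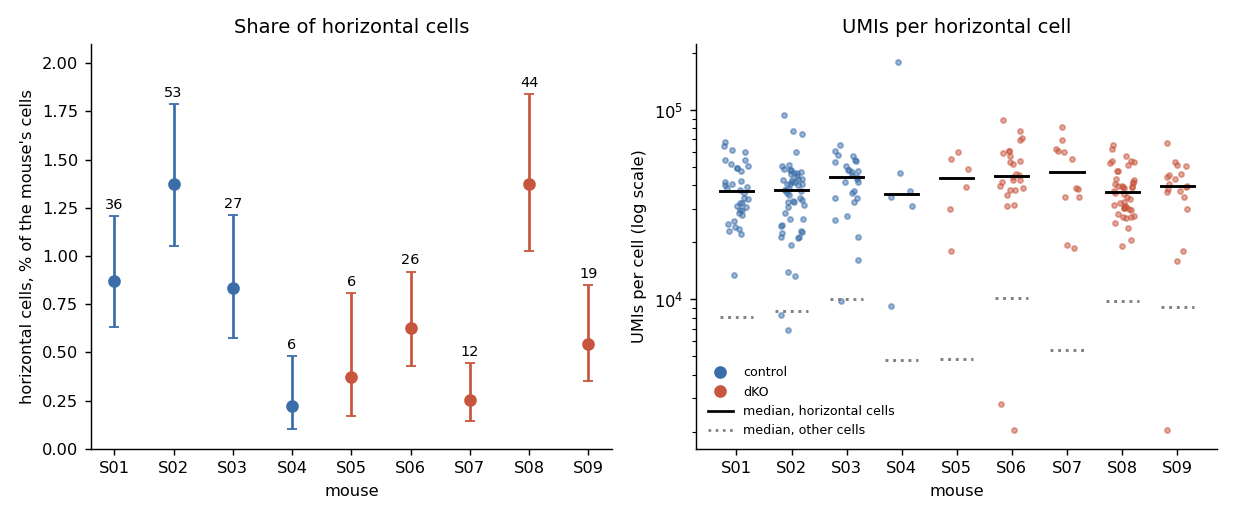
Left, horizontal cells as a percentage of each mouse's cells with 95% Wilson intervals (counting error only) and the number of cells above each bar; right, UMIs of every horizontal cell on a log scale, with the median of the mouse's horizontal cells (solid line) and other cells (dotted line). The shares of both groups overlap, from 0.221% to 1.37% in control and 0.255% to 1.375% in dKO mice, and in every mouse the median horizontal cell lies above the median of the other cells.

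As a rate, the summed markers of every horizontal cell lay well above the minimum, but the shallowest cells held few marker UMIs. A cell of S06 with 2030 UMIs and a cell of S09 with 2042 UMIs held 3 marker UMIs each, the fewest the rule allows. Of 236 cells with Lhx1 and at least 2 further markers, 4 fell short of the sum and 3 held too much Rbpms plus Slc17a6. The lowest sums among the horizontal cells were 6.14 and 6.79 per 10000 UMIs, the median 23.5 and the highest 43.7, whereas the highest cell that failed had 1.76. For Rbpms plus Slc17a6, the highest horizontal cell held 1.72 per 10000, the lowest cell that failed 3.88, and 170 horizontal cells held none. All 4 markers were present in 225 cells, and dropping the need for Lhx1 raised the number to 244. The cells came from all 8 sublibraries, 22 to 35 from each, and no barcode was shared between mice. Of the horizontal cells, 48 had a barcode combination that recurred in another sublibrary.

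Since the rule chose the cells by their expression, levels in horizontal cells are described beside other cells without a test. Levels are in CPM: the UMIs of a gene, summed over a mouse's cells of 1 kind, divided by all UMIs of those cells and multiplied by 1000000. They are given as mean ± SD over the 7 mice, and the value after "against" is that of all other cells unless a gate is named. CPM are not scaled by transcript length, so values of different genes are not ranked against each other. For comparison, gates were set for GABAergic amacrine-type cells (2423 cells, median 26615 UMIs), ganglion-type cells (573 cells, 47555 UMIs) and Müller-type cells (2545 cells, 15628 UMIs). These gates are marker cuts without Lhx1 and not full cell type annotations.

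The transcription factors of the horizontal cell set it apart from the other cells, and the levels of those that the rule used are given as a description. Lhx1, the LIM homeobox factor that places horizontal cells in their layer, was measured at 332, 241 and 221 CPM in the control mice S01, S02 and S03 and 213, 251, 231 and 248 CPM in the dKO mice S06, S07, S08 and S09. Onecut1, a cut-domain factor needed for horizontal cell formation, was measured at 603, 567 and 589.6 CPM in control and 524, 602, 593 and 698 CPM in dKO mice. S01 was the highest mouse for Lhx1 and S09 for Onecut1. Onecut2 stood at 685 ± 54.5 CPM against 5.71 ± 1.197 , and Calb1, the calcium buffer calbindin, at 804 ± 94.8 CPM against 10.7 ± 3.27. These 4 genes chose the cells, and their enrichment is therefore no finding. Onecut3, the third member of the family and not part of the rule, was found in all 229 cells at 293 ± 22.998 CPM against 0.606 ± 0.188 in other cells. Prox1, a homeobox factor of horizontal cells, Müller glia and some amacrine and bipolar cells, was at 1435 ± 181 CPM against 261 ± 69.8. Tfap2b, an AP-2 factor of amacrine and horizontal cells, was at 836 ± 76.3 CPM against 138 ± 35.05, and 494 ± 48.1 in the amacrine-type gate. Its relative Tfap2a was at 33.4 ± 9.58 CPM against 43.1 ± 11.9, with 179 ± 23.3 in the amacrine-type gate. Rorb, the orphan nuclear receptor, was at 1991 ± 172 CPM against 817 ± 64.95. Isl1, a LIM homeobox factor of ganglion, ON bipolar and starburst cells, was low at 4.03 ± 4.76 CPM against 61.4 ± 15.1. Ptf1a and Foxn4, which act in the progenitors of horizontal cells, had no UMI in the adult cells, as did Pvalb (parvalbumin). Apart from Lhx1, Onecut1 and Onecut2, 12 factors were listed. Of these, 6 were higher in horizontal cells than in other cells in 7 of 7 mice (Onecut3, Prox1, Pax6, Tfap2b and Rorb among them) and 3 were lower in 7 of 7, Isl1 among them.

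The genes with the largest ratio to other cells were mostly not the textbook markers. Among 1721 genes with at least 100 CPM, the 25 with the largest mean log2 ratio (with 10 CPM added to both sides) ran from Thsd7b at 6.15 to Col27a1 at 4.33. In each of the 7 mice, all 25 were higher in horizontal cells than in the other cells, in the amacrine-type gate and in the ganglion-type gate. The first of these follows from the choice by ratio. Of the 25, 4 are markers of the rule and both gates leave out cells with Lhx1, so that the gate comparisons of these 4 are no finding. Thsd7b, a thrombospondin-repeat membrane protein, was found in all 229 cells, at 5433 ± 457 CPM against 67.9 ± 18.1 in other cells. Arhgap15, a GTPase-activating protein for Rac, was at 2817 ± 706 CPM against 36.6 ± 7.54, and Lrrc4, a postsynaptic adhesion protein that binds netrin-G2, at 1816 ± 231 CPM against 24.4 ± 3.58. These genes include several that are known mainly from other organs. Tecrl, an enoyl-CoA reductase-like protein known from heart muscle, was at 515 ± 54.1 CPM against 1.25 ± 0.228. Pcsk6, a proprotein convertase, was at 2672 ± 193 CPM against 60.7 ± 18.1, and Hs6st3, a heparan sulfate 6-O-sulfotransferase, at 8633 ± 544 CPM against 281 ± 42.4. Each of these was detected in at least 96.9% of the horizontal cells. Signalling and guidance proteins were also among the 25. Prkg2, the membrane-bound cGMP-dependent kinase, was at 355 ± 45.1 CPM against 3.45 ± 0.794. Slit1, a secreted ligand of Robo receptors, was at 924 ± 88.6 CPM against 29.6 ± 6.702, and Adgrb1, an adhesion receptor of synapses, at 1965 ± 236 CPM against 77.5 ± 18.2. The SD of the log2 ratio between mice was largest for Pcsk6 (0.454). Myzap, a protein of the intercalated disc of heart muscle, was at 304 ± 36.04 CPM against 2.13 ± 0.697. The spread between mice was thus small beside the ratios themselves. Beside Thsd7b, Arhgap15, Lrrc4, Tecrl, Pcsk6, Hs6st3, Prkg2, Myzap, Slit1, Adgrb1 and Col27a1, the 25 held the transcript genes Gm45459 and Gm16551 as well as Fam124a and Hycc1. A further 9 were in the lists used here: Onecut1, Onecut2, Onecut3, Lhx1, Calb1, Tpm3, Slc4a3, Megf11 and Septin4. The same 25 genes were found when cells with at least 0.2% of their UMIs on markers of rods, cones, Müller glia and bipolar cells, or with at least 5 Gad1 UMIs, were left out.

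**Figure D2:**
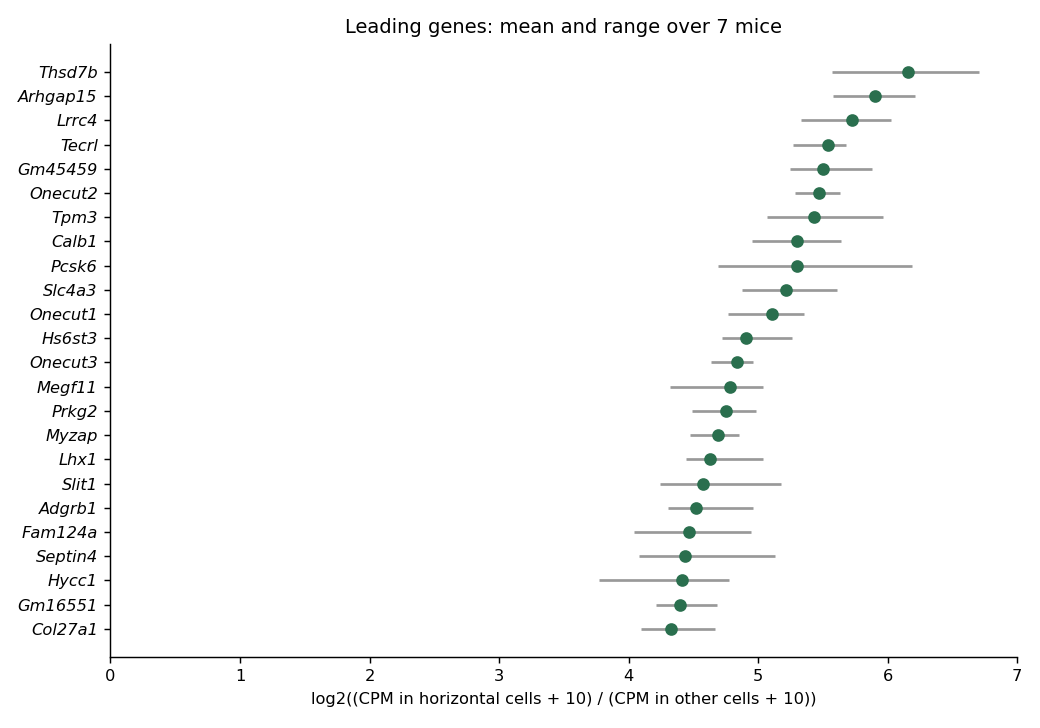
Of the 25 genes of highest ratio in horizontal cells, the 24 reported here, by log2 ratio of the summed level in horizontal cells to that in all other cells of the same mouse (10 CPM added to both); points are means and lines the range over 7 mice. Means run from 4.33 to 6.15, and the lowest value of any mouse is 3.77, for Hycc1.

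Of 11 calcium-binding proteins other than Calb1, none was higher than in other cells in 7 of 7 mice and 7 were lower. Calb2 (calretinin), a marker of amacrine and ganglion cells, was at 1.14 ± 0.698 CPM against 45.5 ± 11.4.

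Coupling between horizontal cells rests on connexins. Gja10, which encodes connexin-57, a gap junction protein of mouse horizontal cells, was at 101 ± 17.2 CPM against 0.176 ± 0.110 and was found in 91.3% of the cells. It lies at chr4:32596960-32602760 (minus strand, GRCm39). With every cell thinned to 10000 UMIs (222 of 229 horizontal cells reached this), 60.8% held a Gja10 UMI, against 0.130% in the amacrine-type and 0.147% in the Müller-type gate. Gja10 was thus rare in those gates. Gjb2 and Gje1 had no UMI in any horizontal cell, and Gjd2, the connexin of many other retinal neurons, was at 1.95 ± 2.204 CPM against 30.4 ± 2.97. Pannexin genes were low too, with Panx1 at 0.704 ± 0.783 CPM against 5.31 ± 1.19 and Panx2 at 4.46 ± 2.73 CPM against 9.93 ± 2.22. Tjp1, a scaffold at gap and tight junctions, was at 1034 ± 98.1 CPM against 630.4 ± 48.4.

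Of 15 genes of proton and bicarbonate handling, the group tied to pH-based feedback, the bicarbonate transporters Slc4a3 and Slc4a5 had the highest ratios to other cells. Slc4a3, an anion exchanger, was at 1904 ± 292 CPM against 42.03 ± 9.59, in every cell. By mouse, Slc4a3 was measured at 2485, 1724 and 2051 CPM in the control mice S01, S02 and S03 and 1716, 1629, 1919 and 1806 CPM in the dKO mice S06, S07, S08 and S09. S01 was the highest mouse, and the groups overlapped. Slc4a5, a sodium bicarbonate cotransporter, was at 846 ± 83.4 CPM against 81.7 ± 26.5, with 19.8 ± 7.82 in the amacrine-type and 192 ± 92.4 in the Müller-type gate. Genes of the carbonic anhydrase family, some of which speed the exchange of CO2 and bicarbonate, went the other way. All 4 listed genes were lower than in other cells in 7 of 7 mice, with Car2 at 17.4 ± 7.04 CPM against 133 ± 6.28 and Car14, a Müller and RPE enzyme, at 6.199 ± 6.31 CPM against 85.7 ± 38.6. The subunits of the vacuolar proton pump were near the level of other cells, as in Atp6v0a1 at 279 ± 25.001 CPM against 258 ± 21.9. Over the list, 4 genes were higher and 6 lower than in other cells in 7 of 7 mice.

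Of 27 genes of glutamate receptors and their auxiliary subunits, 7 were higher in horizontal cells in 7 of 7 mice and 18 lower. The receptors that read the photoreceptor signal at horizontal cell dendrites are of the AMPA type. Gria4 was at 1432 ± 93.02 CPM against 562 ± 117, Gria3 at 609.9 ± 50.4 CPM against 198 ± 42.5 and Gria2, the subunit that limits calcium entry, at 496 ± 29.6 CPM against 452 ± 68.9. Gria1 was lower, at 24.4 ± 13.1 CPM against 276 ± 53.3, and 5 cells held 42.9% of its UMIs. Cacng3, an auxiliary subunit of AMPA receptors, was at 541 ± 75.2 CPM against 76.9 ± 18.5, and Cacng2 at 144 ± 18.3 CPM against 73.1 ± 12.6. AMPA receptor genes thus went both ways. Among kainate receptor genes, Grik4 was higher (183 ± 30.3 CPM against 45.7 ± 13.2) and Grik1, the receptor of OFF bipolar cells, lower (373 ± 76.7 CPM against 879 ± 187). Of the NMDA receptor genes, Grin1 was at 329 ± 26.6 CPM against 110.0 ± 20.04, whereas Grin2a and Grin2b were at 14.1 ± 16.9 and 14.4 ± 10.2 CPM, with 75.2% and 58.5% of their UMIs in 5 cells. All 7 listed metabotropic receptor genes were lower than in other cells in 7 of 7 mice, as in Grm7 at 205 ± 34.7 CPM against 740.4 ± 158.

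GABA is the classical transmitter of horizontal cells, and the genes of its synthesis and release differed in how far they stood above background. Slc32a1, the vesicular transporter that loads GABA, was at 22.2 ± 7.697 CPM against 17.8 ± 4.46 and was found in 44.1% of horizontal cells. After thinning, 20.3% of horizontal cells held a UMI of it, against 46.4% in the amacrine-type, 1.09% in the ganglion-type and 1.37% in the Müller-type gate. The share in horizontal cells was therefore above that in kinds that should lack the gene. Gad1, the main enzyme of GABA synthesis, was found in 9.61% of horizontal cells and, after thinning, in 4.95%, against 3.28% in the ganglion-type and 4.8996% in the Müller-type gate. This is at the level of cells that should lack the enzyme, and is read as background for most horizontal cells. For Gad2 the shares were 2.25% in horizontal, 8.197% in ganglion-type and 3.43% in Müller-type cells. Enzymes of GABA synthesis were thus not detectable above background in the bulk of the cells. Of 19 GABA and glycine receptor genes, 3 were higher and 13 lower in 7 of 7 mice. Gabra3 was at 167 ± 16.3 CPM against 49.9 ± 12.1 and Gabrg1 at 40.8 ± 13.5 CPM against 12.6 ± 1.86. Gabrr2, a rho subunit of bipolar cells, was at 10.4 ± 6.37 CPM against 125 ± 28.4. Glrb, the glycine receptor subunit that binds gephyrin, was at 80.005 ± 16.9 CPM against 67.4 ± 14.5, while Glra1 was at 19.03 ± 23.3 CPM against 83.9 ± 15.5 with 77.9% of its UMIs in 5 cells.

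Of the listed channels, 4 of 16 calcium channel genes and 3 of 21 potassium and HCN channel genes were higher in all 7 mice. Cacna2d3, an auxiliary subunit of calcium channels, was at 2739 ± 168 CPM against 239.9 ± 46.4, and 82.2 ± 21.9 in the amacrine-type gate. Cacna1h, a T-type calcium channel, was at 882 ± 68.05 CPM against 142 ± 34.5. Cacna1d and Cacna1f, L-type channels, were lower, at 146 ± 44.9 CPM against 505 ± 113 and at 22.1 ± 10.8 CPM against 194 ± 45.3. Calcium channel genes therefore went both ways, and so did those of potassium channels. Kcnj3, a G protein-gated inward rectifier, was at 639 ± 113 CPM against 67.3 ± 13.4, and Kcnj2, the strong inward rectifier, at 39.6 ± 13.9 CPM against 3.45 ± 0.497. Kcnh7, a channel of the Erg family, was at 820.0 ± 44.6 CPM against 321 ± 58.3. Scn2a, a sodium channel, was at 219.9 ± 18.9 CPM against 147 ± 30.3 and the only one of 9 listed sodium channel genes higher in 7 of 7 mice. Scn4b had no UMI.

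Molecules of mosaic spacing and of contact with photoreceptors included 9 of 23 genes that were higher in all 7 mice. Megf11, a receptor by which cells of a mosaic keep their distance, was at 1377 ± 142 CPM against 40.6 ± 6.99, and its relative Megf10 at 137 ± 24.2 CPM against 65.2 ± 20.9. Megf10 was higher still in the Müller-type gate (399 ± 59.97). Sdk2, an immunoglobulin-family adhesion protein, was at 1158 ± 40.8 CPM against 150.2 ± 39.2, and its values by mouse spanned only 1072 to 1195 CPM. Guidance and adhesion genes followed. Plxna4 and Sema6a, a guidance receptor and its ligand, were at 707 ± 79.8 CPM against 148 ± 34.2 and at 478 ± 60.6 CPM against 146 ± 27.7. C1ql1, a secreted C1q-like protein, was at 96.9 ± 27.6 CPM against 16.6 ± 3.56. Dscam, an adhesion protein of amacrine and ganglion cells, was among the 12 genes lower in 7 of 7 mice, at 82.2 ± 51.3 CPM against 712 ± 138.

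Of 10 genes of neurotrophic factors and their receptors, 4 were higher in horizontal cells in 7 of 7 mice and 6 lower, with a median ratio to other cells of 0.110. The 4 were the receptors Ret, Gfra1, Gfra2 and Ntrk2. Ret, the signalling receptor, was at 250.5 ± 36.96 CPM against 16.8 ± 2.75, and its coreceptors Gfra1 and Gfra2 were at 693 ± 82.4 CPM against 94.6 ± 23.7 and at 424 ± 72.8 CPM against 44.2 ± 12.7. After thinning, 87.8% of horizontal cells held a Ret UMI, against 54.8% in the ganglion-type and 7.05% in the amacrine-type gate. For Gfra1 the order of these gates was the other way round, with 96.8% in horizontal, 52.5% in amacrine-type and 5.65% in ganglion-type cells. Ntrk2, the receptor of BDNF, was at 434 ± 21.4 CPM against 219.9 ± 46.02, and the receptors Ngfr and Ntrk3 were among the 6 genes lower than in other cells in 7 of 7 mice.

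Of the 12 cytoskeleton genes, 7 were higher in all 7 mice and 2 lower. Tpm3, a tropomyosin, was at 2808 ± 200.1 CPM against 56.3 ± 12.6, Septin4 at 1364 ± 165 CPM against 53.8 ± 8.31 and Septin7 at 1732 ± 124 CPM against 132 ± 9.05, both subunits of septin filaments. The neurofilament genes were near the level of other cells, with Nefl at 52.7 ± 4.93 CPM against 59.1 ± 19.6 and Nefm at 36.9 ± 7.87 CPM against 42.04 ± 12.9, and 671 ± 53.5 for Nefl in the ganglion-type gate. In the release machinery, 6 of 20 genes were higher in all 7 mice and 8 lower. Syt2, a fast calcium sensor, was at 551 ± 66.2 CPM against 20.2 ± 4.37, and 4.06 ± 1.22 in the amacrine-type gate. Snap25, a SNARE protein, was at 4708 ± 343 CPM against 911 ± 34.9. Syt1, the other fast sensor, was lower (1362 ± 82.4 CPM against 2911 ± 381).

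**Figure D3:**
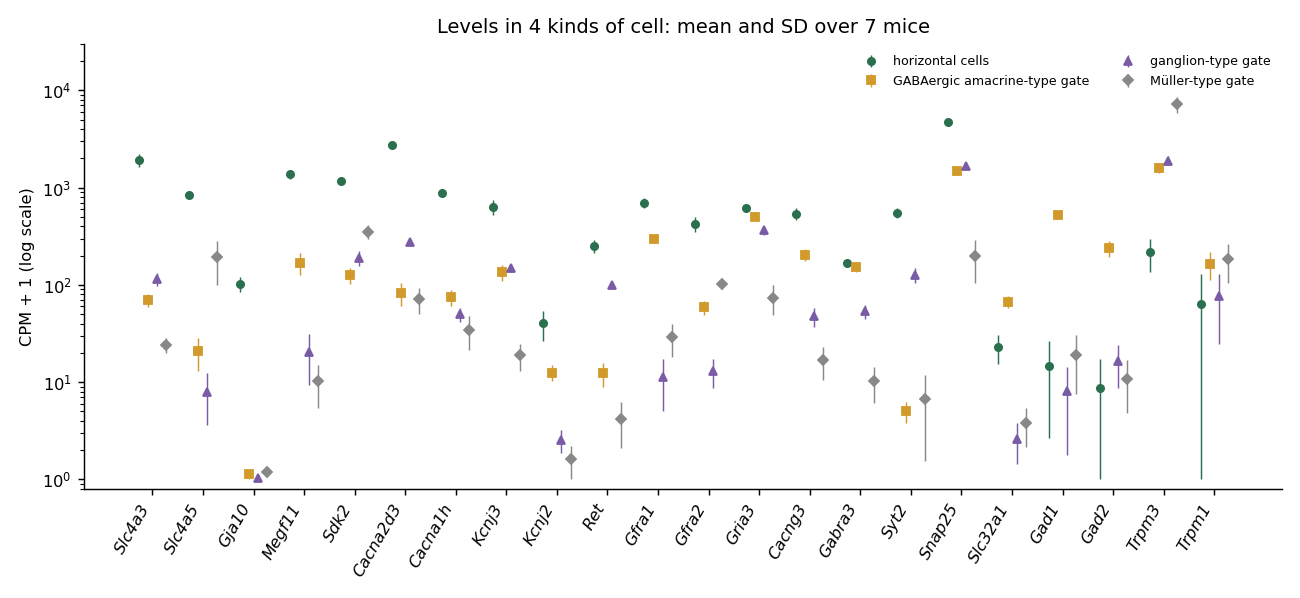
Levels of 22 genes in horizontal cells and in 3 gates, as CPM + 1 on a log scale; points are means and lines SD over 7 mice, with the lower end stopped at 0 CPM. Slc4a3, Slc4a5, Gja10, Megf11 and Cacna2d3 are highest in horizontal cells, whereas Gad1, Gad2 and Trpm3 are not, with Gja10 at 101 CPM in horizontal cells and under 1 CPM in every gate.

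Rod, cone, Müller glia and bipolar cell markers were lower in horizontal cells than in other cells. All 10 rod markers were detected in horizontal cells, each at 0.0901 to 0.109 times its level in other cells, Sag, the rod arrestin, among them at 147 ± 122 CPM against 1339.9 ± 834. The median ratio was 0.111 for 5 cone markers, 0.123 for 5 Müller glia markers and 0.119 for 5 bipolar markers. Summed over 5 RPE markers, horizontal cells held 9.12 to 15.1 CPM in control and 4.09 to 12.6 CPM in dKO mice, over 5 microglia markers 3.51 to 10.1 and 1.36 to 14.0 CPM, over 5 vascular markers 12.2 to 30.4 and 10.9 to 73.7 CPM, and over 6 ganglion cell markers 17.2 to 24.6 and 12.3 to 22.1 CPM. Over 5 amacrine markers the sums were 145 to 209 and 185 to 197 CPM, or 0.52 to 1.24 times other cells, nearly all from 1 of them that stood at 1.03 times its level in other cells, whereas 4 were lower in 7 of 7 mice. Of the markers in these lists, Slc18a3, C1ql2, Pou4f2, C1qa and Cldn5 had no UMI in any horizontal cell, and all others were detected. Among the 6 ganglion cell markers, 5 were lower in 7 of 7 mice, and the highest ratio to other cells was 1.18. Rbpms and Slc17a6 are among the 6 and were capped by the rule. Their low level and their part of the sums are therefore no finding. Of all UMIs in horizontal cells, rod markers made up 0.0481% ± 0.0220 (SD, n = 3) for control and 0.0760% ± 0.0639 (SD, n = 4) for dKO mice (exact permutation p = 0.686). This difference changed sign without S07 (dKO minus control -0.00164 percentage points). In 22 horizontal cells, at least 0.2% of UMIs came from markers of rods, cones, Müller glia and bipolar cells together, and 25 cells passed another gate but for Lhx1, 22 of them the amacrine-type gate.

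The hosts of the deleted microRNAs stood at 0.105 (Trpm3) and 0.0914 (Trpm1) times their level in other cells, within the range of the rod markers. Trpm3 (chr19:22116410-22972774), the cation channel gene that holds miR-204 in an intron, was at 215 ± 80.3 CPM against 2037 ± 637 and at 7191 ± 1349.7 in the Müller-type gate. Trpm1 (chr7:63803583-63922019), the ON bipolar channel gene that holds miR-211, was at 62.9 ± 66.7 CPM against 689 ± 205, and 5 horizontal cells held 67.2% of its UMIs. By mouse, Trpm3 was measured at 118, 182 and 222 CPM in control and 332, 131, 302 and 217 CPM in dKO mice, and Trpm1 at 22.2, 199.6 and 27.2 CPM in control and 102, 19.2, 30.5 and 39.5 CPM in dKO mice. The groups overlapped for both genes (log2 fold change 0.50 ± 0.28 (SE), adjusted p = 0.999 for Trpm3 and log2 fold change -0.80 ± 0.68 (SE), adjusted p = 0.999 for Trpm1, edgeR). Ago2, an Argonaute that loads microRNAs, was at 219 ± 41.03 CPM against 107 ± 4.63 and higher in 7 of 7 mice, whereas Drosha, Dgcr8 and Dicer1, which cut microRNA precursors, were lower in 7 of 7, Dicer1 at 109 ± 15.4 CPM against 140.3 ± 6.03.

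Whether horizontal cells differed between dKO and control mice was tested on UMIs summed per mouse, over the 7 mice with at least 10 horizontal cells, with edgeR's quasi-likelihood test and Benjamini-Hochberg adjustment over all genes tested. In such sums, a change in how many cells hold an RNA and a change of RNA per cell cannot be told apart. The 3 control mice gave 1138045 to 1974131 summed UMIs and the 4 dKO mice 573327 to 1672131. Of 8738 genes tested, 6 passed an adjusted p of 0.05 (0.0687% of the genes), all higher in dKO: Dscam, Unc5d, Kcnc2, Meis2, Gad1 and Fgf14. At an unadjusted p under 0.05, 296 genes differed (3.39%), 176 higher (2.01%) and 120 lower (1.37%) in dKO mice. In 2.99% of genes all dKO mice lay above all control mice and in 1.75% all lay below. The median log2 fold change of all genes was 0.000247. No gene passed without S01, S03, S06 or S09 (at an unadjusted p under 0.05, 182 genes were higher and 131 lower without S01, 188 and 122 without S03, 155 and 144 without S06, and 214 and 156 without S09), and 6, 7 and 9 passed without S02, S07 and S08. With S06 and S07 summed as 1 mouse, or with the Xist level as a covariate, 7 genes passed, the 6 among them.

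All 6 genes were higher in the amacrine-type gate than in horizontal cells, as in Meis2 at 1326 ± 128 CPM against 72.8 ± 46.1. For Gad1 this follows from the gate, which requires that gene. No control mouse held more than 4 Gad1 UMIs in all its horizontal cells. Gad1 (ENSMUSG00000070880, protein-coding, chr2:70383416-70432372 on the plus strand of GRCm39) was measured at 1.43, 2.03 and 3.51 CPM in the control mice S01, S02 and S03 and 31.9, 20.9, 12.6 and 23.2 CPM in the dKO mice S06, S07, S08 and S09. Every dKO mouse lay above every control mouse (log2 fold change 3.21 ± 0.46 (SE), adjusted p = 0.0278, edgeR). Dscam (chr16:96392040-96972145), the adhesion gene of the mosaic list, was measured at 23.7, 46.1 and 16.7 CPM in control and 113, 136, 115 and 125 CPM in dKO mice (log2 fold change 1.99 ± 0.26 (SE), adjusted p = 0.0224, edgeR). Meis2 (chr2:115693062-115896341), a homeobox factor of GABAergic amacrine cells, was measured at 22.9, 38.5 and 22.8 CPM in control and 129, 113, 68.2 and 115 CPM in dKO mice (log2 fold change 1.84 ± 0.25 (SE), adjusted p = 0.0224, edgeR). Among the mice tested, the groups did not overlap for either gene. This leaves out S04, a control mouse under the minimum of cells, in which a single cell held 71 Meis2 UMIs. That cell was the deepest of all horizontal cells, with 178568 UMIs. With no minimum of cells, only Gad1 and Unc5d passed, and the log2 fold change of Meis2 was 0.93 (adjusted p = 0.9999, edgeR). Unc5d (chr8:29136745-29709664), a netrin receptor, was measured at 33.7, 47.6 and 28.1 CPM in control and 128, 274, 132 and 131 CPM in dKO mice (log2 fold change 2.09 ± 0.28 (SE), adjusted p = 0.0224, edgeR). Kcnc2 (chr10:112105226-112302929), a fast delayed-rectifier potassium channel, was measured at 4.301, 6.08 and 2.64 CPM in control and 26.2, 20.9, 31.7 and 23.2 CPM in dKO mice (log2 fold change 2.47 ± 0.34 (SE), adjusted p = 0.0224, edgeR). Fgf14 (chr14:124211258-124914539), an intracellular regulator of sodium channels, was measured at 12.9, 15.2 and 9.67 CPM in control and 49.9, 109.9, 44.3 and 43.6 CPM in dKO mice (log2 fold change 2.16 ± 0.34 (SE), adjusted p = 0.0473, edgeR). These 3 genes also did not overlap between groups, and S07 was the highest mouse for Unc5d and Fgf14. The 4 genes that followed by p did not pass: Kctd16, an auxiliary subunit of GABA-B receptors (adjusted p = 0.0504), Zfhx3, a zinc finger homeobox factor (0.0704), and Gad2, the second GABA-synthesising enzyme, and Zmat4 (both 0.0962, edgeR). Kctd16 was measured at 4.301, 5.57 and 8.79 CPM in control and 24.6, 34.9, 24.5 and 20.4 CPM in dKO mice. Zfhx3 was measured at 13.6, 23.8 and 7.03 CPM in control and 72.03, 62.8, 44.3 and 55.9 CPM in dKO mice. For Gad2 the values were 0, 0.507 and 0 CPM in control and 13.1, 19.2, 3.59 and 17.7 CPM in dKO mice, the control mice together holding 1 UMI, and for Zmat4 they were 5.02, 8.61 and 5.27 CPM in control and 48.3, 17.4, 22.7 and 49.1 CPM in dKO mice. For all 4, no dKO mouse was as low as the highest control mouse.

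**Figure D4:**
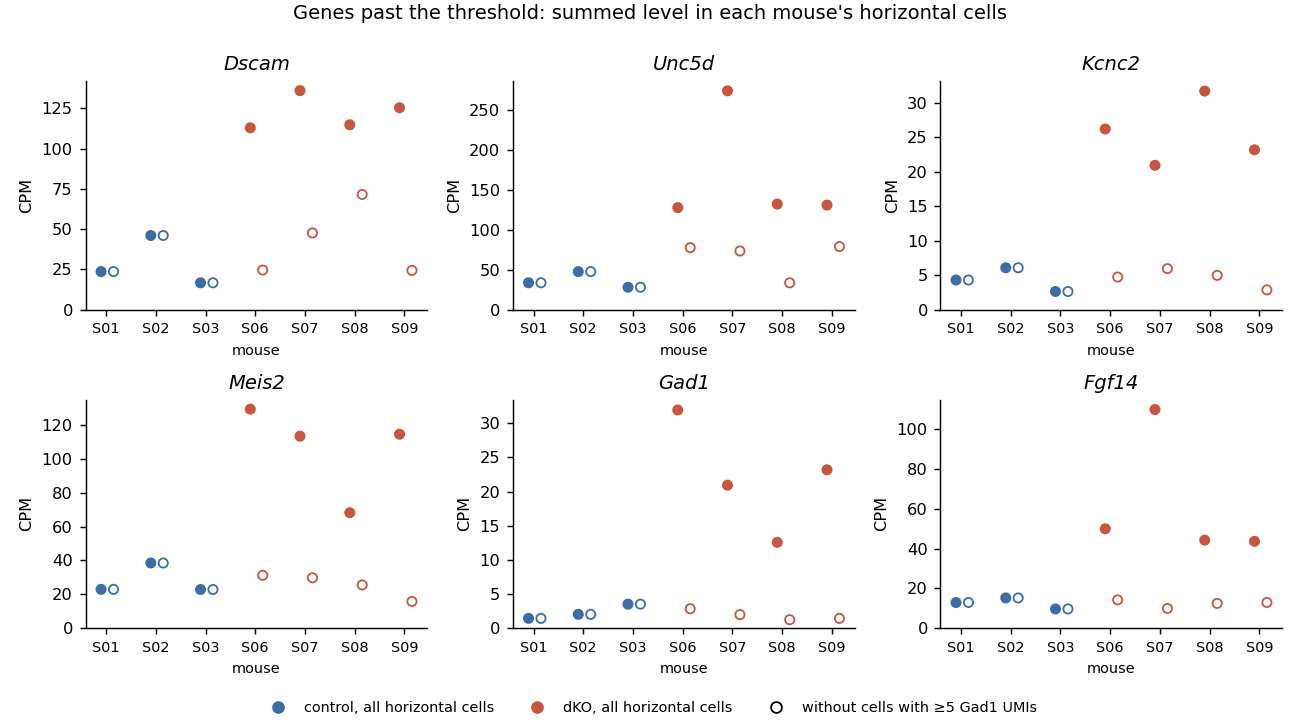
Level of the 6 genes past the threshold in the summed horizontal cells of each of 7 mice, in CPM, with all horizontal cells (filled) and without the 6 cells that held at least 5 Gad1 UMIs (open; in control mice both are the same). With all cells each dKO mouse lies above each control mouse; without those cells the groups overlap for every gene.

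Most UMIs of these genes in dKO mice came from few cells. When the 6 genes were summed in each cell, the median horizontal cell with under 5 Gad1 UMIs held 79.6 CPM of them together, and the highest 1745 CPM, whereas 6 cells with 8 to 25 Gad1 UMIs held 2236 to 6636 CPM. All 6 were dKO cells: 1 of S05, 2 of S06, and 1 each of S07, S08 and S09. This is 6 of 107 dKO horizontal cells and 0 of 122 control cells, and cells of 1 mouse are not independent samples of a group. The threshold of 5 Gad1 UMIs was set after these values were seen, and the share is therefore given without a test. The 6 cells held 37023 to 88375 UMIs, with a median of 67510 against 39198 in the other horizontal cells. They held each of the 4 horizontal cell markers, at lower levels than the rest: Lhx1 at 108 CPM against 248, Onecut1 at 241 against 598, Onecut2 at 397 against 686 and Calb1 at 324 against 821. Their Gad1 level was 226 CPM against 2.02 in the other horizontal cells and 525 in the amacrine-type gate, and Meis2 stood at 937, 35.2 and 1316 CPM. For Gad1, the minimum of UMIs sets the 6 cells above the other horizontal cells, and the gate also requires Gad1. Both sets of horizontal cells passed the same marker rule, so that it did not fix their order for the 4 markers. That order was not tested. Markers of rods, cones, Müller glia and bipolar cells made up 0.0475% to 0.605% of their UMIs. No doublet caller was run, and whether each is 1 cell or a pair was not tested. Of the UMIs of all dKO horizontal cells, the 6 cells held 91.8% for Gad1, 78.1% for Kcnc2, 78.2% for Meis2, 68.8% for Fgf14, 66.6% for Unc5d and 65.4% for Dscam. High cells without Gad1 were also present, among them a cell of the control mouse S04 with 71 Meis2 UMIs and a cell of S08 with 68 Dscam UMIs. The S04 cell was the deepest horizontal cell (178568 UMIs). It also had the highest share on those markers of rods, cones, Müller glia and bipolar cells (2.40%), and held 426 CPM of the 6 genes together. The S08 cell had 57189 UMIs, 0.261% of them on those markers, and held 1451 CPM of the 6 genes.

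**Figure D5:**
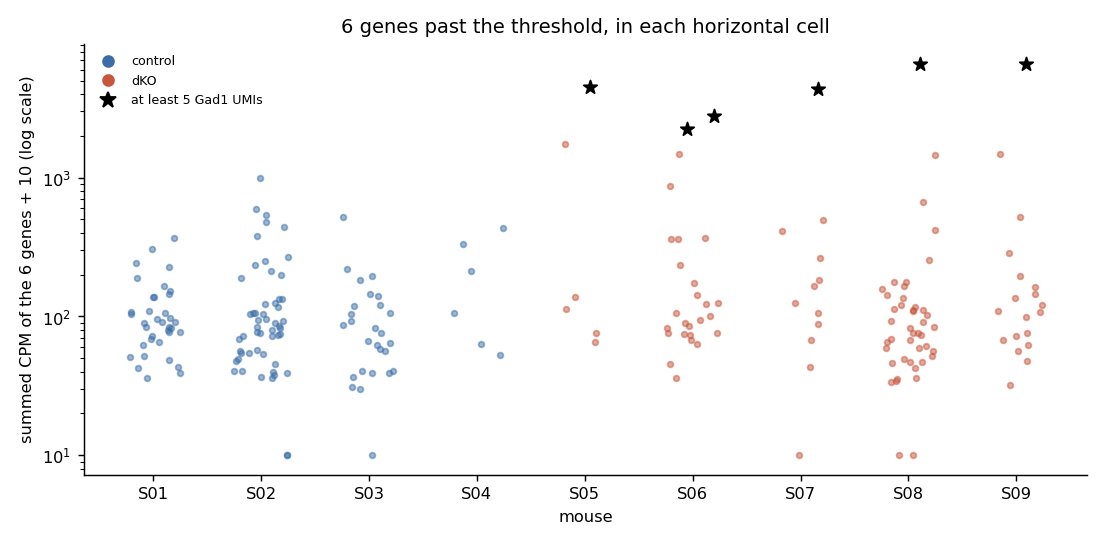
Summed level of the 6 genes past the threshold in every horizontal cell of the 9 mice, as CPM + 10 on a log scale. Stars mark the 6 cells with at least 5 Gad1 UMIs, all from dKO mice, at 2236 to 6636 CPM; the other 223 cells of both groups have a median of 79.6 CPM and reach at most 1745 CPM.

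Without the 6 cells, an alternative added after the data were seen that removes cells from dKO mice only, none of the 6 genes passed. Meis2 was then measured at 31.3, 29.8, 25.5 and 15.8 CPM in S06, S07, S08 and S09, within or below the control range, and Dscam at 24.6, 47.6, 71.6 and 24.4 CPM. Gad1 was at 2.84, 1.98, 1.24 and 1.44 CPM, as the choice of cells dictates, and neither Gad1 nor Kcnc2 passed the filter on low counts. Unc5d was at 77.7, 73.4, 33.6 and 78.97 CPM, above the control mice except in S08, with a log2 fold change of 0.78 (adjusted p = 0.99995, edgeR; 2.43e-23 to 0.99995 over all alternatives). Of 8344 genes tested, 1 passed (0.012% of the genes; 2.71% at an unadjusted p under 0.05). This was Lingo2 (chr4:35703525-36951747), a leucine-rich repeat protein of synapses, named here after its values were seen. Lingo2 was measured at 149.8, 77.5 and 61.5 CPM in S01, S02 and S03, and at 19.9, 9.92, 9.96 and 8.61 CPM in S06 to S09. All 4 dKO mice lay below the control mice (log2 fold change -2.95, adjusted p = 0.0169, edgeR). However, S05, a dKO mouse under the minimum of 10 cells, was at 262 CPM with a UMI in 5 of 5 cells, above every control mouse, and S04, a control mouse with 6 cells, was at 59.2 CPM. With these mice included, no gene passed (0 of 8231 genes; 73 higher and 96 lower at an unadjusted p under 0.05), and the log2 fold change of Lingo2 was -1.20 (adjusted p = 0.9998, edgeR). With all horizontal cells it was -0.14 (adjusted p = 0.999, edgeR), and the cells left out, dKO cells only, held up to 125 Lingo2 UMIs each. Over all alternatives the adjusted p of Lingo2 ran from 0.0124 to 0.999997. The amacrine-type gate held Lingo2 at 1249 to 2234 CPM in the 9 mice.

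In 2 gene lists, 4 genes each had an unadjusted p under 0.05, beside 3.39% of all genes. Of 7 genes of GABA synthesis and transport, 6 were tested, 1 passed (Gad1) and 4 were higher at an unadjusted p under 0.05, with a median log2 fold change of 2.46. Without the 6 cells, 2 of the 7 could be tested, neither passed and their median was 0.19. Of 27 glutamate receptor genes, 18 were tested, none passed, and 4 were higher at an unadjusted p under 0.05 (Grm7 and Grin2b among them; lowest adjusted p of the list 0.352, edgeR), with a median of 0.06 over the list. Without the 6 cells, 15 were tested, none was higher at that p and 1 was lower. Grin2b, an NMDA receptor subunit, was measured at 3.58, 13.2 and 6.15 CPM in control and 31.9, 13.95, 23.9 and 8.18 CPM in dKO mice (log2 fold change 1.33 ± 0.48 (SE), adjusted p = 0.999, edgeR). Slc32a1, the gene of the GABA synthesis and transport list that horizontal cells held above background, was measured at 15.1, 19.8 and 26.4 CPM in control and 13.9, 36.6, 23.3 and 20.4 CPM in dKO mice. The groups overlapped for Slc32a1 (log2 fold change 0.13 ± 0.32 (SE), adjusted p = 0.999, edgeR). The potassium channel list held 1 call (Kcnc2 of 16 tested) and the mosaic list 1 (Dscam of 21). In no other list did a gene pass. The median log2 fold changes of the other lists of neuronal genes lay between -0.08 and 0.18.

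Of the horizontal cell genes that the rule did not use, none passed in the lists of transcription factors, gap junctions, bicarbonate handling, calcium channels and neurotrophin receptors. Gja10 was measured at 115, 79.02 and 105 CPM in control and 102, 129, 95.7 and 84.5 CPM in dKO mice (log2 fold change 0.01 ± 0.17 (SE), adjusted p = 0.999, edgeR). Cacna2d3 was measured at 2898, 2852 and 2843 CPM in control and 2776, 2398, 2688 and 2718 CPM in dKO mice; all dKO mice lay below the control mice, without passing the test (log2 fold change -0.15 ± 0.11 (SE), adjusted p = 0.999, edgeR). Gfra2 was measured at 329, 333 and 417 CPM in control and 517, 495, 450.3 and 429 CPM in dKO mice, with all dKO mice above (log2 fold change 0.36 ± 0.12 (SE), adjusted p = 0.999, edgeR). Of 15 genes of neuronal stress and injury, 5 had enough counts to be tested and none passed. Fos was measured at 20.1, 25.8 and 21.1 CPM in control and 39.3, 17.4, 29.9 and 24.5 CPM in dKO mice (log2 fold change 0.33 ± 0.27 (SE), adjusted p = 0.999, edgeR), and Ecel1 and Sprr1a, which injured neurons switch on, had no UMI. A further list held 7 genes that the study labelled in the RPE. Of these, 3 were tested in horizontal cells and none passed. A p-value that misses the threshold does not show that these levels were the same in both groups.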

How the data were processed

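Papain-dissociated, fixed retinal cells of 9 mice were profiled by split-pool barcoding of poly-A RNA in 8 sublibraries. The authors aligned the reads to GRCm39 with the maker's pipeline at default settings, filtered out cells in which few genes, and genes for which few cells, were detected, and deposited unnormalised UMI counts, which were used here. Their submitters' processing notes name R 4.2.2 and Seurat 4.3.0 for later steps, which these counts do not contain. No doublet caller was run here. Cells of other kinds were gated by markers (Gad1 with 2 of 3 further markers, Pax6 and Tfap2b among them, for the amacrine-type gate). Counts were summed per mouse and tested with edgeR 4.0.16 (R 4.3.3; low-count filter, TMM, quasi-likelihood test, adjusted p under 0.05) in mice with at least 10 horizontal cells, and single values with exact permutation tests (scipy 1.17.1). Alternatives were DESeq2 1.42.0, limma 3.58.1 (voom), other filters, scalings, cells and covariates, and leaving out each mouse. The study's own test of cells as replicates was not used. The members, the 27 gene lists and the tests were chosen with earlier results of these data known. Named are genes of the lists (2 to 6 examples a list), the 25 genes of largest ratio to other cells and the 10 genes with the lowest p. Positions are from GENCODE on GRCm39. Totals per mouse ran from 15079143 to 66528160 UMIs. Intervals cover counting error only. Some genes of the lists are not reported here.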

Additional observations from a re-analysis of the deposited data

Results flagged for a closer look

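In the dKO group, S07 stood apart from the other 3 mice for Unc5d (273.84 CPM in its horizontal cells, against 128 to 132 CPM) and for Fgf14 (109.885 CPM, against 43.6 to 49.9 CPM), by the ratio of its gap to the range of the group. These were 2 of 14 groups examined, and chance alone sets about 1 in 20 apart. A single horizontal cell of S07, 1 of the 6 with at least 5 Gad1 UMIs, held 120 of the 157 Unc5d UMIs and 58 of the 63 Fgf14 UMIs of that mouse. Without it, S07 was at 73.4 CPM for Unc5d and 9.92 CPM for Fgf14. S07 had the fewest horizontal cells (12) of the mice tested.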

How the results depend on the processing

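Of 8738 genes, 6 passed in the fit reported. DESeq2 called 18, limma-voom 2, the fit with no filter on low counts 122 (of 22370 genes), that with no minimum of cells per mouse 2, and that on counts thinned to the smallest total 3. Without the 5% of cells with most UMIs 1 gene passed, and without cells with at least 0.2% of UMIs on markers of rods, cones, Müller glia and bipolar cells 1 (Unc5d in both). Without cells that pass another gate 1 passed, and without cells with at least 5 Gad1 UMIs 1 (Lingo2 in both), which became 0 when mice under 10 cells were kept. Leaving out 1 mouse gave 0 to 9 calls. The remaining alternatives gave 5 to 9. Without cells that pass another gate, the log2 fold changes turned to -0.25 for Dscam, -0.54 for Meis2 and -0.41 for Zfhx3. Without cells with at least 5 Gad1 UMIs they turned to -0.16 for Meis2, -0.028 for Fgf14 and -0.074 for Zfhx3. With no minimum of cells as well, they were -1.38 for Meis2, 2.09 for Fgf14 and 0.0043 for Zfhx3 (edgeR adjusted p = 0.9998 for each). Both alternatives leave out the cells that held most UMIs of these genes. The rod RNA difference turned to -0.00843 percentage points without cells that pass another gate and to -0.00164 without S04, S05 and S07, with a range of -0.00164 to 0.0450 when 1 mouse was left out. The other values for the named genes comprised 127 with the same outcome, 16 that newly passed and 53 that no longer passed. The log2 difference in the share of horizontal cells was -0.38, and moved to -0.018 without S02 and to -0.88 without S08. The UMIs per horizontal cell and the levels beside other cells kept their direction under every alternative run. The alternatives on that 0.2% and on Gad1 were chosen after seeing the data. No paired analysis was possible because the groups share no replicate number. The limits are few mice (3 against 4), 12 to 53 horizontal cells in each of them, and no count of cells outside the dissociated sample.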

Other observations

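Some genes were held at high levels by a subset of the horizontal cells and were rare in the rest. The spread between cells was ranked over 3677 genes in 199 cells. These had at least 10000 UMIs, under 0.2% of UMIs on markers of rods, cones, Müller glia and bipolar cells, and under 5 Gad1 UMIs. The lists of amacrine and ganglion cell markers were not part of that 0.2%. The measure was the dispersion beyond counting error after the 8 highest cells of each gene were left out, and its median was 0.0753. The genes named here were chosen from the top of that ranking, and their values are a description.

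Rasgrf1, an exchange factor for Ras that is imprinted in the mouse, had the largest dispersion, 9.27. In S08, 25 of 44 horizontal cells held a Rasgrf1 UMI and 17 held at least 10, whereas in S02 it was 6 of 53 cells and 1 with at least 10. The summed level in horizontal cells was 212 CPM in S08, and 0 to 119 CPM in the other 8 mice. The other cells of S08 held 183 CPM and those of S02 182 CPM. S08 was thus the highest mouse in its horizontal cells, while its other cells were close to those of S02. Among the other dKO mice, 2 of 6 horizontal cells of S05 held at least 10 Rasgrf1 UMIs, and 10 of 26 of S06 held a UMI. In cells thinned as above, a Rasgrf1 UMI was found in 15.8% of horizontal, 85.3% of amacrine-type, 84.2% of ganglion-type and 18.3% of Müller-type cells. The gene was thus common in the amacrine-type and ganglion-type gates. Whether RNA of such cells was part of the Rasgrf1 level in horizontal cells was not tested.

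Slc15a2, a transporter of small peptides, followed with a dispersion of 2.89. A UMI of Slc15a2 was found in 62.3% of the horizontal cells of S02 and 11.1% of those of S01, both control mice, and in 66.7% of S07, 46.2% of S06 and 15.9% of S08, all dKO mice. In S04, a control mouse, 0 of 6 cells held one. The ranges of both groups thus overlapped. Wdr72, a WD-repeat protein, had a dispersion of 2.48, with a UMI in 26.9% of cells in S06 to 66.7% in S04, and Lingo2 one of 2.14.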
